A study of Homo sapiens with 6 samples.

Results

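Receptors for steroid hormones and the estrogen-related receptors were compared between pLUM (pure luminal) and pLB (pure luminobasal) breast cancer cells. The members were 9 genes of the 25940 gene names on the array, namely ESR1, ESR2, PGR, NR3C1, NR3C2, ESRRA, ESRRB, ESRRG and PGRMC1. These genes were chosen with earlier results of these data known. Their probes were taken by gene name, not by signal. Every non-control spot whose gene name equalled a member was used, which gave 15 probes on 33 spots per array. Each probe and its transcript was treated separately. Both lines came from xenograft tumors of T47Dco, a subline of the luminal breast cancer line T47D, in ovariectomized immunodeficient NSG mice. pLUM cells came from an estradiol (E) tumor, were cultured in E and purified by FACS as CLD3+ CD49f-. pLB cells came from a tumor of a mouse given E plus progesterone, were cultured under estrogen withdrawal (EWD) and purified as CLD3- CD49f+. For the arrays, pLUM had 72 h of 1 nM E and pLB were under EWD in charcoal-stripped serum; both were fixed, permeabilized, stained for cytokeratin 5 (CK5) and sorted. Which CK5 fraction was hybridized is not given in the sources used here. Each line is 1 derived line from 1 tumor, and line, tumor of origin and hormone coincide, so their parts in any difference cannot be told apart.

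There were 3 pLUM and 3 pLB samples, each on its own single-dye Agilent array. RNA came from triplicate sorts, and nothing says that these were separate cultures, so p-values measure the spread between these samples, which may be technical. The 75th percentile of intensity, a measure of overall brightness, was 449 to 869, and 21280 to 22772 probes per array were well above background. Slide 1 held all pLUM arrays and the array of pLB replicate 1, and slide 2 held the other pLB arrays. Of 6 luminal marker genes 5 fell in pLB, though another probe of KRT8, which is among them, was called in the opposite direction, and all 6 basal marker genes rose, among them KRT5, the gene of CK5, at least 1754-fold higher in pLB (limma, adjusted p = 1.44e-07). CLDN3 and ITGA6 of these lists encode CLD3 and CD49f, with which the lines were sorted. The luminal and basal genes are all among markers whose RNA differences the paper reports for these lines, so their directions were known beforehand. Of all 15457 genes tested by 1 probe each, 22.8% were called lower and 23.8% higher. Of 14 marker genes of other cells (fibroblasts, leukocytes, endothelium and fat), 7 were well above background on no array, namely COL3A1, PDGFRB, LUM, PECAM1, ADIPOQ, PLIN1 and LEP, whereas COL1A1, PTPRC, CD14 and CDH5 were on all 6 arrays and were not called. VWF, an endothelial gene, was called higher in pLB (at least 1.80-fold, limma adjusted p = 0.00879), and the summed intensity of the 3 endothelial genes was 50.5 to 64.6 in pLUM and 99.9 to 107 in pLB. The summed intensity was 349 to 541 in pLUM and 343 to 404 in pLB for fibroblast genes, 172 to 213 and 173 to 204 for leukocyte genes, and 10.1 to 23.3 and 11.7 to 16.7 for adipocyte genes. These sums are intensities not scaled between arrays, so they also carry the differences in overall brightness. The part of other cells in the results was not tested.

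Nuclear steroid receptors are transcription factors that bind a hormone, dimerize and occupy short DNA elements near their target genes. ESR1 encodes estrogen receptor alpha (ER), which in luminal breast cells drives growth and induces PGR, the gene of progesterone receptor (PR), whose presence is used in the clinic as a sign of active ER. ESR2 encodes estrogen receptor beta, NR3C1 the glucocorticoid receptor and NR3C2 the mineralocorticoid receptor. The estrogen-related receptors ESRRA, ESRRB and ESRRG resemble ER but bind no estrogen and act with PGC-1 coactivators on genes of mitochondrial energy metabolism. PGRMC1 is no nuclear receptor but a membrane-bound heme protein that has been linked to progestin responses.

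Probes of ESR1 and of ESRRA gave different values between the lines, so the places they read are shown. The probes are 60 bases long and positions are in hg19, as the files give them. For ESR1, the probe that begins at base 234 of NM_000125 (chr6:152129048-152129107, + strand) starts at the start codon, in capitals, and the probe at base 1345 of NM_001122742 (chr6:152265523-152265582, + strand) reads the coding sequence of the ligand-binding domain. The third ESR1 probe, at base 5828 of NM_000125 (chr6:152423908-152423967, + strand), lies far 3′ of both, and its leading 30 bases are given. For PGR, the probe at base 3296 of NM_000926 (chr11:100912709-100912768, - strand) also reads coding sequence of the ligand-binding domain. For ESRRA, the probe at base 1371 of NM_004451 (chr11:64083361-64083420, + strand) reads the end of the coding sequence, and that at base 2125 (chr11:64084115-64084174, + strand) lies 3′ of it, again with its leading 30 bases.
ESR1 234: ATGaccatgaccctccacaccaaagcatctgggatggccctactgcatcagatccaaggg
ESR1 1345: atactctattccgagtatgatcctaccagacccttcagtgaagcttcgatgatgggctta
ESR1 5828: tttttgcatccaattgtgcctgaactttta
PGR 3296: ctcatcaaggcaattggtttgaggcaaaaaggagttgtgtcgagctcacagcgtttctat
ESRRA 1371: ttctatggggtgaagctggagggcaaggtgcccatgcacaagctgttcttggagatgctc
ESRRA 2125: tgtacagagactctattttaatgtatattt

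ESR1 and PGR signals fell in pLB, ESRRA and PGRMC1 signals rose, and no difference was called for NR3C1, NR3C2 or ESRRG. The directions of ESR1 and PGR were known beforehand. The paper describes pLUM as ER+ PR+ and pLB as ER- PR- by protein, and reports lower RNA of both receptors in pLB. A probe was tested where 3 or more of the 6 arrays had it well above background, and was called at a difference of at least 2-fold with a Benjamini-Hochberg adjusted p under 0.05 over all probes tested in limma. Of the 15 probes, 12 passed this filter, from 7 of the 9 genes. Among them 5 were called lower in pLB, which were the 3 probes of ESR1 and both of PGR, beside 23.7% of the 23103 probes tested on the array. A probe of ESRRA and that of PGRMC1 were called higher, that is 2 probes, beside 21.9% of all probes tested. The remaining 5 were not called. The 3 pLB and 3 pLUM arrays did not overlap for 7 member probes, where this held for 68.1% of all probes tested. The lines thus differed at many genes, and the member counts alone do not set the receptors apart. The median difference over all tested probes was -0.01 on the log2 scale. The arrays measure RNA of sorted populations in bulk, so fewer cells with a transcript and less transcript per cell cannot be told apart.

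**Figure D1:**
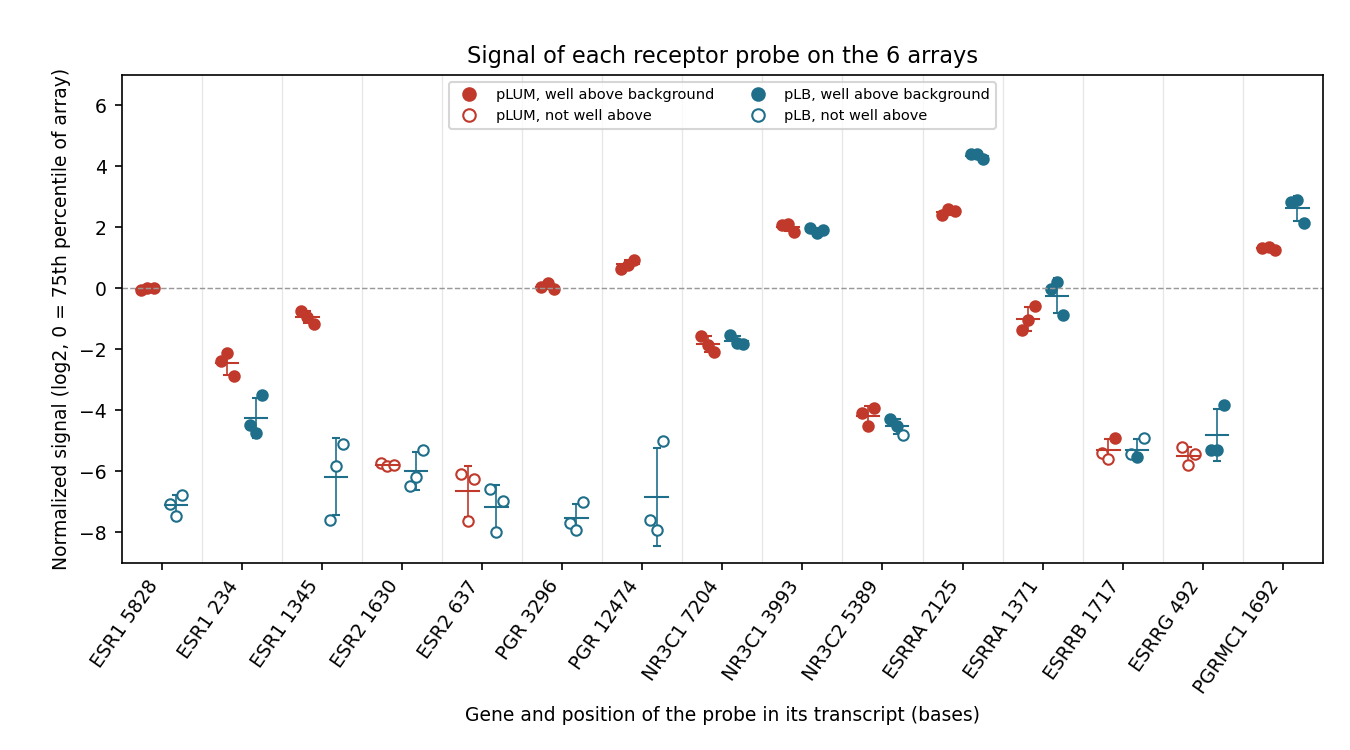
Normalized signal of the 15 receptor probes (y axis, log2 relative to the 75th percentile of the array) on 3 pLUM (red) and 3 pLB (blue) arrays, with the mean (line) and SD (bars); the x axis gives the gene and the base of the transcript at which the probe begins. Filled points are well above background and open points are not, and heights are comparable between arrays for a probe but not between probes. The pLB points of ESR1 1345, ESR1 5828 and both PGR probes are open and far below the pLUM points, whereas those of ESR1 234 are filled.

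The ESR1 probe at base 5828 is printed on 10 spots of each array. In pLUM the intensity on the arrays of replicates 1, 2 and 3 was 454, 565 and 571, and in pLB, in the same order, 6.73, 4.20 and 4.12. Every pLUM array was near its own 75th percentile, at -0.02 ± 0.04 on the normalized log2 scale (SD, n = 3), whereas no pLB array was well above background (-7.11 ± 0.34, SD, n = 3). ESR1 was thus at least 38.7-fold lower in pLB at this probe, a bound set by the lowest signal that counts as well above background on each array. The adjusted p from limma, 5.83e-07, is for the fit to the recorded values and not for the bound. Of the probe's 10 spots in pLB, 8, 4 and 4 were above background on replicates 1, 2 and 3 but none well above it. The other spots hold a value from the scanner software's error model and not a measured one, and these values enter that fit.

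At base 1345, in the ligand-binding domain, ESR1 intensity was 285, 295 and 253 on the pLUM arrays and 4.51, 12.2 and 12.9 on the pLB arrays. Again every pLUM array was well above background and no pLB array was. The bound was at least 20.4-fold lower in pLB (limma on the recorded values, adjusted p = 0.000186). Under normexp, an alternative background correction that adds an offset of 50, the bounds shrank to 9.4-fold at base 5828 and 5.44-fold at base 1345.

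At the start codon ESR1 was lower in pLB but stayed well above background there. Its intensity at base 234 was 91.3, 130 and 76.2 on the pLUM arrays and 38.5, 25.7 and 39.4 on the pLB arrays. All 6 arrays were well above background, and the lowest pLUM value exceeded the highest pLB value. Normalized signals were -2.46 ± 0.40 in pLUM and -4.26 ± 0.66 in pLB (SD, n = 3), a fall by 3.47-fold (log2 fold change -1.80, SE 0.36; limma, adjusted p = 0.00373), with a 95% confidence interval of 1.93- to 6.25-fold lower. In pLB it lay 0.92, 0.95 and 1.24 log2 units above the lowest signal that counted as well above background on its array, so that the pLB level was measured near the limit of the array. Within slide 1, pLB replicate 1 was below the mean of the 3 pLUM arrays by a log2 difference of -2.04 at base 234, and at least 22.3-fold at base 1345 and 42.2-fold at base 5828. Under normexp the log2 fold change at base 234 shrank to -1.06, near the 2-fold limit but called (limma, adjusted p = 0.0285).

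The bounds of the other ESR1 probes lie outside the confidence interval of the start codon probe. In pLUM, however, the start codon probe lay only 2.88, 3.32 and 2.55 log2 units above the lowest well above background signal on replicates 1, 2 and 3. Falls as large as those bounds therefore could not have been measured at base 234. With dim signals set to the lowest well above background signal of each array, a comparison chosen after the values were seen, the log2 signal at base 234 minus that at base 5828 was -2.31, -2.11 and -2.90 on the pLUM arrays and 0.92, 0.95 and 1.24 on the pLB arrays. Since no pLB array measured bases 5828 and 1345, the pLB values are lower bounds and are the same for both. The mean difference between the lines was therefore at least 3.48 for this pair and at least 2.55 for base 234 against base 1345, and is given with no test. The level of any ESR1 transcript form cannot be read from it. The pLUM means of -2.44 (base 5828) and -1.52 (base 1345) are part of these differences. Differences of that size would remain even if base 234 were undetected in pLB. The 3 genes whose profile over the 6 arrays was nearest to that of ESR1 at base 234 were KDM6A, ZNF461 and EDN1, with a root mean square difference of 0.12 to 0.17 log2 units after centering each profile on its mean.

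PGR gave the largest bounds among the members, at least 40.7-fold lower in pLB at base 3296 and at least 67.5-fold lower at base 12474 (chr11:100900858-100900917, - strand). At base 3296 the intensity was 485, 627 and 558 on the pLUM arrays and 4.15, 2.87 and 3.47 on the pLB arrays. In pLB all 3 of these spots failed to exceed background, so that the value stands for an undetected signal. The adjusted p from limma, fitted to these values, was 8.81e-07, and it does not measure a spread of PGR signal in pLB. At base 12474 the intensity was 740, 964 and 1083 on the pLUM arrays and 4.48, 2.81 and 14.0 on the pLB arrays (limma, adjusted p = 8.52e-05). pLB replicate 3 was the highest of the pLB arrays, and was still not well above background. Under normexp the bounds were 10.7- and 15.8-fold. Within slide 1, pLB replicate 1 was at least 44.5-fold lower at base 3296 and 73.7-fold lower at base 12474 than the mean of the pLUM arrays.

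ESR2, the other estrogen receptor gene, was not tested because neither of its probes was well above background on any array. The probe at base 1630 of NM_001437 (chr14:64716267-64716326, - strand) is on 10 spots per array, and its intensity was 9.69, 10.2 and 10.7 on the pLUM arrays and 9.97, 9.96 and 11.5 on the pLB arrays. All 10 of its spots exceeded background on every array, but at most 3 of them were well above it. Both lines thus gave a dim signal, their normalized values overlapped, and a difference was not detectable at this brightness. The probe at base 637 of NM_001214903 (chr14:64735558-64735617, - strand) was at 6.90, 2.81 and 7.38 in pLUM and 9.02, 2.71 and 3.56 in pLB, and its lines overlapped.

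**Figure D2:**
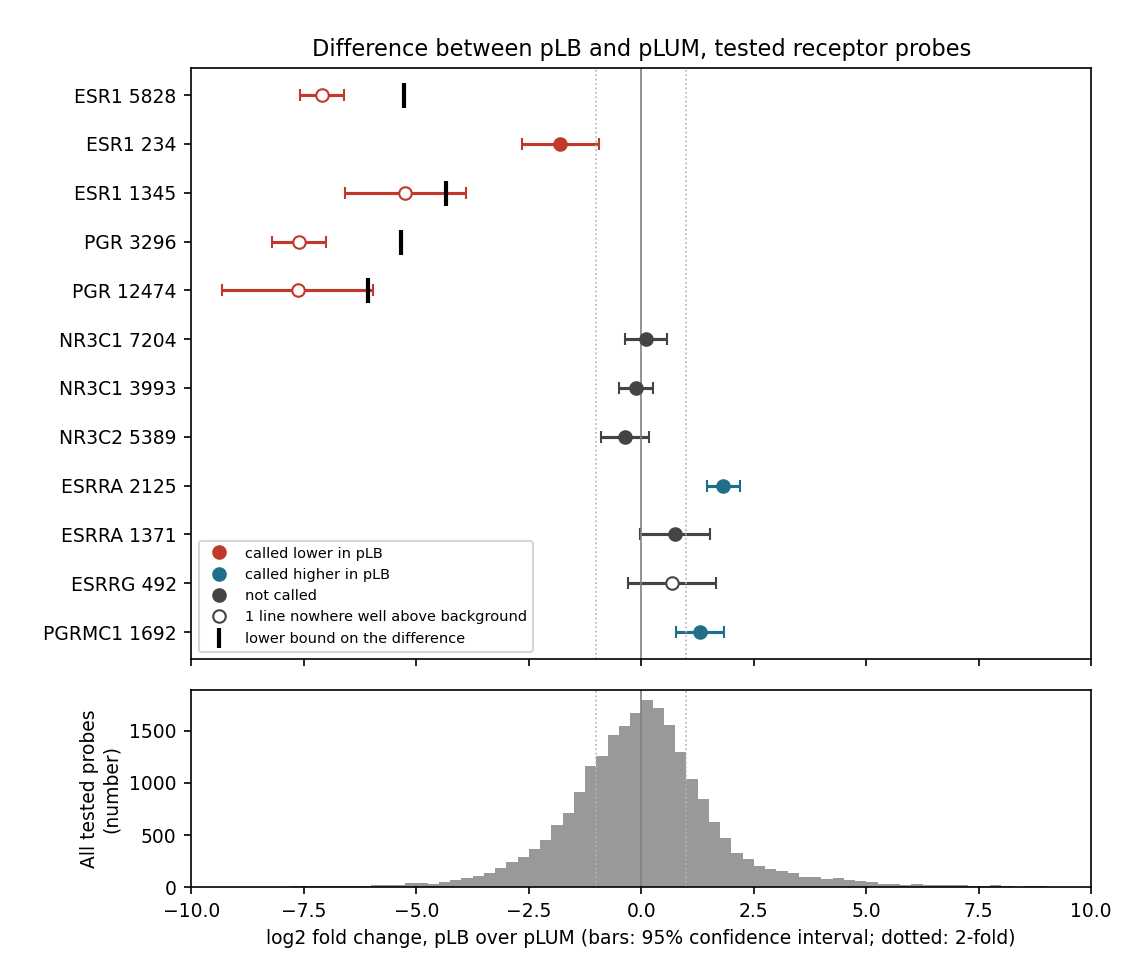
Upper panel, log2 fold change of pLB over pLUM (x axis) for the 12 tested receptor probes (y axis), with 95% confidence intervals from limma; open points mark probes with 1 line nowhere well above background, and where these were called the black tick gives the lower bound on the difference. Lower panel, number of all 23103 tested probes by log2 fold change. ESR1 and PGR lie on the left, NR3C1 and NR3C2 at 0 and ESRRA and PGRMC1 on the right.

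Both NR3C1 probes were well above background on all 6 arrays and neither was called. At base 3993 of NM_001018077 (chr5:142660729-142660788, - strand) the normalized log2 signal was 2.09, 2.12 and 1.84 in pLUM and 1.97, 1.80 and 1.91 in pLB. The arrays of the 2 lines were interleaved. The log2 fold change was -0.12 with a 95% confidence interval of -0.50 to 0.26 (limma, adjusted p = 0.534). At base 7204 (chr5:142657518-142657577, - strand) the signal was -1.55, -1.86 and -2.08 in pLUM and -1.53, -1.81 and -1.82 in pLB, a log2 fold change of 0.11 with an interval of -0.35 to 0.58 (limma, adjusted p = 0.646). Both intervals lie within the 2-fold limits. The difference between the changes of the 2 probes was 0.23 log2 units, with p = 0.2 in an exact two-sided permutation test, and 0.02 under normexp. The nearest profiles were those of PPAT, ATP9B and SLC25A30 for base 3993 and of LACC1, MOB1B and BTBD1 for base 7204.

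NR3C2 was dim. At base 5389 of NM_000901 (chr4:149000364-149000423, - strand) the intensity was 28.0, 24.2 and 37.2 on the pLUM arrays and 44.5, 30.4 and 16.1 on the pLB arrays, and pLB replicate 3 was not well above background. The lines overlapped, and the log2 fold change was -0.35 with a 95% confidence interval of -0.89 to 0.18 (limma, adjusted p = 0.211). A 2-fold difference at this probe lies outside that interval.

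ESRRA was called higher in pLB at 1 of its 2 probes. At base 2125 its intensity was 2507, 3425 and 3312 on the pLUM arrays and 18463, 14681 and 8422 on the pLB arrays. Normalized signals were 2.52 ± 0.11 in pLUM and 4.35 ± 0.10 in pLB (SD, n = 3), so that the lines were separated by many times the spread of either. The rise was 3.55-fold (log2 fold change 1.83, SE 0.16; limma, adjusted p = 5.71e-05), and the log2 difference within slide 1 was 1.89. The nearest profiles were those of OIP5-AS1, NUS1 and CCDC127, with a root mean square difference of 0.03 to 0.05 log2 units.

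At base 1371, in the coding sequence, ESRRA intensity was 183, 275 and 377 on the pLUM arrays and 850, 795 and 245 on the pLB arrays. pLB replicate 3 lay among the pLUM arrays, and pLB replicates 1 and 2 lay above them. The log2 fold change was 0.76 with a 95% confidence interval of -0.02 to 1.53 and was not called (limma, adjusted p = 0.0804), whereas without pLB replicate 3 it was 1.08 and was called (limma, adjusted p = 0.00999). The signal at base 2125 minus that at base 1371 was 3.78, 3.64 and 3.13 log2 units in pLUM and 4.44, 4.21 and 5.11 in pLB, a difference of 1.07 between the lines (exact two-sided permutation test, p = 0.1, the smallest possible). The nearest profiles were those of DUSP2, GRB2 and HSPB1.

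The other estrogen-related receptors were at the limit of the array. ESRRG, at base 492 of NM_206594 (chr1:216850631-216850690, - strand), had an intensity of 12.7, 10.1 and 13.0 on the pLUM arrays and 22.2, 17.7 and 31.7 on the pLB arrays. It was well above background on every pLB array and on no pLUM array, with normalized signals of -5.22, -5.79 and -5.45 against -5.29, -5.30 and -3.82, which overlap. No difference was called (limma, adjusted p = 0.185), the 95% confidence interval on the log2 scale was -0.29 to 1.65, and under normexp the fitted log2 difference turned to -0.34. ESRRB, at base 1717 of NM_004452 (chr14:76966256-76966315, + strand), was well above background on 1 array of each line and was not tested. Its intensity was 11.1, 11.5 and 18.9 in pLUM and 19.8, 15.1 and 15.1 in pLB.

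PGRMC1 was called higher in pLB. At base 1692 of NM_006667 (chrX:118378206-118378265, + strand) its intensity was 1192, 1440 and 1356 on the pLUM arrays and 6212, 5127 and 2005 on the pLB arrays. Normalized to the array, this was 1.33, 1.36 and 1.26 in pLUM and 2.84, 2.88 and 2.16 in pLB, with pLB replicate 3 the lowest of its line but above every pLUM array. The rise was 2.48-fold (log2 fold change 1.31, SE 0.23; limma, adjusted p = 0.00183), with a 95% confidence interval of 0.78 to 1.84 on the log2 scale. Within slide 1 the log2 difference was 1.52. The nearest profiles were those of CKLF, UPK3B and COX7B.

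ESRRA and PGRMC1, the 2 members called higher, each have a single start site in the RefSeq table (GRCh38.p14), and the 250 bases before it are shown with GC boxes in capitals (GGGCGG, searched on both strands). The ESRRA window (chr11:64305274-64305523, + strand) holds 8 matches, some of which overlap, in a sequence of 78.0% G and C. The PGRMC1 window (chrX:119236035-119236284, + strand) holds 3 matches at 76.4% G and C, where the median of 35116 windows in the table is 58.0%.
ESRRA: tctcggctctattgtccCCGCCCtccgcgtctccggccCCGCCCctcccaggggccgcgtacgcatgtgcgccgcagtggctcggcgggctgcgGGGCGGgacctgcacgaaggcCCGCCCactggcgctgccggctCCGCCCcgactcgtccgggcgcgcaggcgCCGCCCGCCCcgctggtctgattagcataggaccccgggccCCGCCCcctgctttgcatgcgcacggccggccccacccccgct
PGRMC1: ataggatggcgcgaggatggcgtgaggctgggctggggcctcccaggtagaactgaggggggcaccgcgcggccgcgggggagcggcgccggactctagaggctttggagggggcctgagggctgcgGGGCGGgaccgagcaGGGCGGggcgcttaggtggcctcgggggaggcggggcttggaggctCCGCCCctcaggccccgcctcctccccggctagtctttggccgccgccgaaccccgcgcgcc
A GC box is in 42.6% of all windows of this length. It was found in at least 1 window for 8 of the 9 members, all but ESRRB. Members have 1 to 8 windows each, so this count of genes is not comparable with that share of windows. Windows of members not called also reached high G and C, up to 82.0% for NR3C1 and 81.6% for NR3C2. Neither trait is thus particular to the members called higher. The nuclear receptor core motif AGGTCA was found in no window of ESRRA or PGRMC1 and in 12.1% of all windows, and among the 38 windows of the 9 members it was found for ESR2 and ESRRG. No member window holds the estrogen response element GGTCANNNTGACC (0.0399% of all windows) or the estrogen-related receptor element TNAAGGTCA (0.854%), which contains the core motif. Motifs were searched on both strands, and a match or its absence in these windows is a description only.

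The genes around the receptors were read from 5 lists, with 1 probe per gene and beside all 15457 genes tested in this way, of which 22.8% were called lower, 23.8% higher and the median log2 fold change was 0.06. Genes that ER is known to induce were mostly lower in pLB: of 19 tested genes, 11 fell, 3 rose and 5 were not called, with a median of -1.52. CXCL12, a chemokine gene, was 215-fold lower (limma, adjusted p = 5.79e-06), though 1 pLB array was not well above background. MYB, a transcription factor gene, was 55.4-fold lower and TFF3, of a secreted trefoil peptide, 32.2-fold lower (limma, adjusted p = 1.71e-06 and 5.24e-06). GREB1, a coactivator of ER, fell by 17.1-fold (limma, adjusted p = 1.51e-06). The 3 genes that rose were CTSD, a lysosomal protease gene, by 2.43-fold, CCND1, the gene of cyclin D1, by 2.64-fold, and IGFBP4, of an IGF-binding protein, by 2.68-fold (limma, adjusted p = 0.00922, 0.000701 and 0.000199). AGR2, CA12, NRIP1, RARA and STC2 were not called, at log2 fold changes of -0.91, -0.70, 0.00, 0.10 and -0.998.

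Of 14 tested genes known to respond to glucocorticoid or progestin, 4 rose, 2 fell and 8 were not called, with a median of 0.14. SGK1, a serum- and glucocorticoid-induced kinase, was 17.1-fold higher in pLB, the metallothionein MT2A 9.33-fold, ERRFI1, an inhibitor of EGFR, 3.23-fold and the transcription factor CEBPB 2.61-fold (limma, adjusted p = 6.17e-06, 6.34e-06, 0.000736 and 0.000168). SLC19A2, a thiamine transporter, was 8.45-fold lower and TSC22D3, the glucocorticoid-induced leucine zipper, 2.17-fold lower (limma, adjusted p = 1.87e-05 and 0.000528). Genes of this list thus moved in both directions, while the NR3C1 probes were not called and both PGR probes were called lower in pLB.

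Receptor chaperones, which hold unliganded steroid receptors in a form that can bind hormone, were higher in pLB for 6 of 16 tested genes and lower for 1, with a median of 0.64. HSPA4 was 6.19-fold higher, STIP1, which links HSP70 to HSP90, 3.12-fold, HSP90AB1 2.91-fold and ST13 2.62-fold (limma, adjusted p = 8.27e-06, 0.000447, 0.000859 and 0.00246). HSPA8 was 3.58-fold higher at its brightest probe (limma, adjusted p = 0.00107), and another of its probes was called in the opposite direction. PTGES3, the co-chaperone p23, was 2.21-fold higher and CDC37, a kinase co-chaperone, 2.37-fold lower (limma, adjusted p = 0.00315 and 0.00115). FKBP5, which is in both the chaperone and the response lists, was not called at a log2 fold change of 0.15.

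Most partners and targets of the estrogen-related receptors were not called: of 15 tested genes, 2 rose, 2 fell and 11 did not pass, with a median of 0.20. The count that rose was 1 without pLUM replicate 2, pLB replicate 1 or pLB replicate 2. It was also 1 with quantile normalization, array median scaling, no filter on dim probes, the methods' t-test or the replicate block. With spike-in scaling or without pLB replicate 3 it was 3. The count that fell was 1 without pLUM replicate 1 or pLB replicate 2, and with normexp or spike-in scaling. Without pLUM replicate 3 it was 3. With no fold limit 5 rose and 4 fell. COX5B and SDHB, of the respiratory chain, were 2.86- and 2.24-fold higher in pLB (limma, adjusted p = 0.000182 and 0.0482). C1orf170, now named PERM1, a muscle gene induced by PGC-1 and these receptors, was 15.0-fold lower and the mitochondrial deacetylase SIRT3 2.05-fold lower (limma, adjusted p = 2.13e-05 and 0.00135). The coactivator PPARGC1B, at 1.90-fold higher, did not reach 2-fold, and PPARGC1A did not pass the filter on dim probes.

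Among PGRMC1 relatives and membrane receptors for progestin or estrogen, 3 of 7 tested genes fell, none rose and 4 were not called. The median was -0.53. PAQR6 and PAQR5, of the membrane progestin receptor family, were 4.64- and 2.62-fold lower in pLB, and GPER, the G protein-coupled estrogen receptor, was 3.35-fold lower (limma, adjusted p = 0.000327, 0.000273 and 4.69e-05). PGRMC2, the closest relative of PGRMC1, was not called at a log2 fold change of -0.53, and neither were NENF and CYB5D2, of the same heme-binding family, at 0.95 each, or PAQR7 at 0.51. All 4 passed the adjusted p in limma but not the 2-fold limit. Limma with trend and robust estimation also called 0 higher, whereas 2 were called higher with slide as a block or with spike-in scaling. With no fold limit 3 were called higher and 4 lower. The count that rose was 1 without pLUM replicate 2 or pLUM replicate 3, and 2 without pLB replicate 3.

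**Figure D3:**
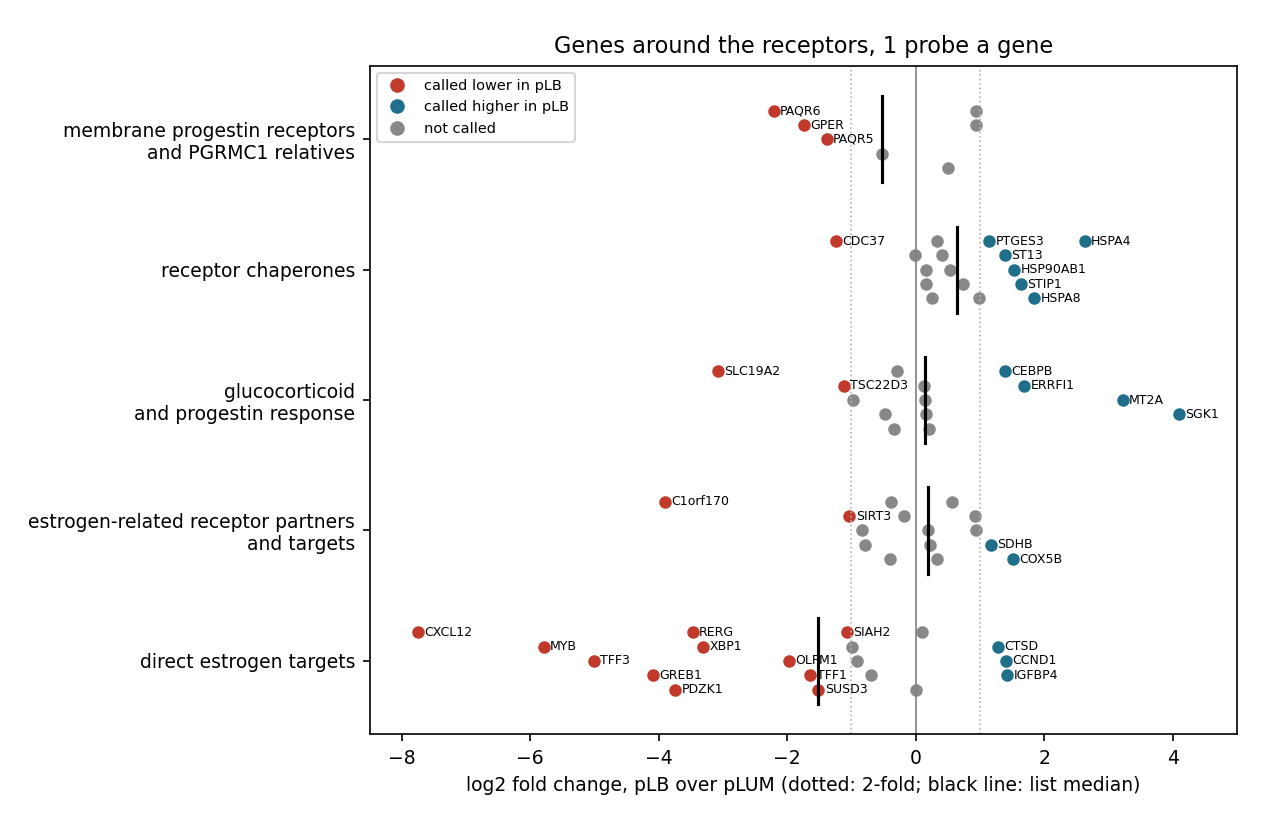
Log2 fold change of pLB over pLUM (x axis) for the tested genes of 5 lists (y axis), 1 point per gene, colored by call and named where called; the black line is the median of the list. The estrogen target list has its median at -1.52 with 11 genes called lower, whereas the medians of the other lists lie between -0.53 and 0.64.

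**Figure D4:**
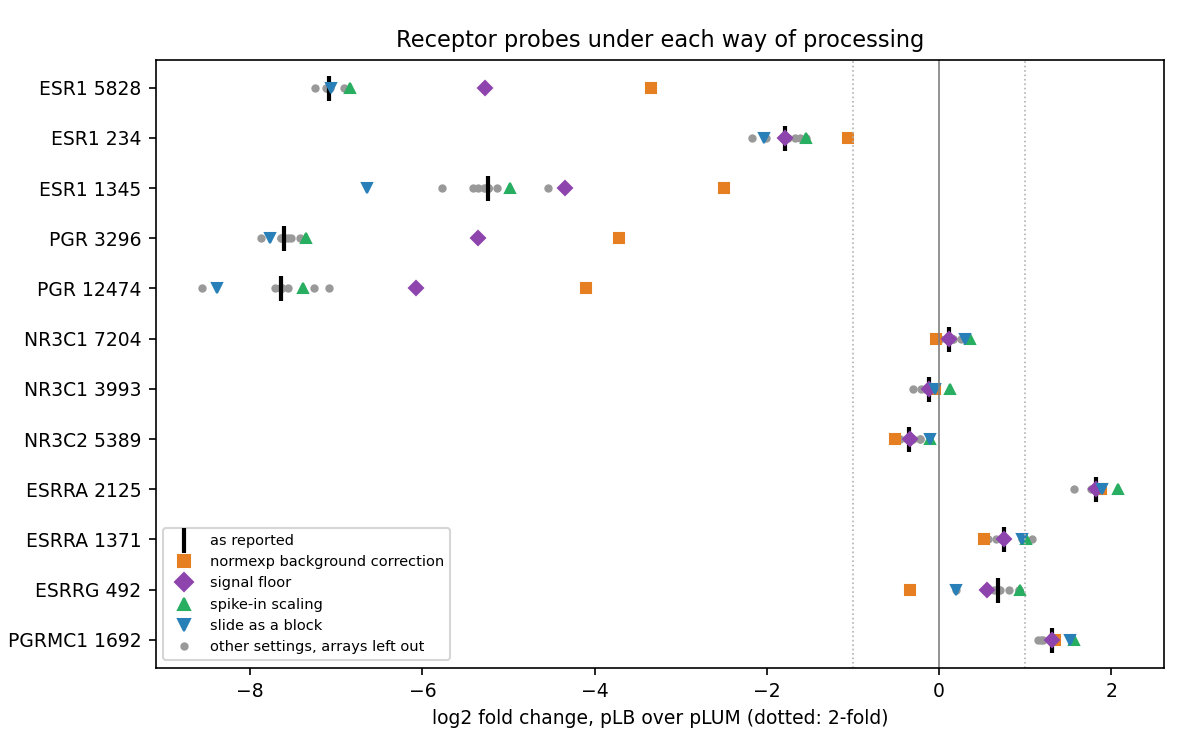
Log2 fold change of pLB over pLUM (x axis) of the 12 tested receptor probes (y axis) as reported (black tick) and under each other way of processing, leaving out each array included. For ESR1 and PGR the normexp correction gives the smallest fitted differences, -3.34 at ESR1 base 5828 and -4.10 at PGR base 12474, and every setting lies left of 0, while the NR3C1 values cross 0 and stay within 2-fold.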

How the data were processed

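RNA of FACS-sorted pLUM and pLB cells, 3 samples each, was measured on single-color Agilent arrays. Scanner files that the authors deposited (Agilent Feature Extraction 10.10.1.1) give an intensity per spot, corrected for background and detrended within its array, with flags but no normalization between arrays. The submitters' processing notes also name Partek, in a role not given in the sources used here. Gene names, transcripts and hg19 positions are those of the files, and 10 of 11 member transcripts matched the RefSeq table (GRCh38.p14).

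Log2 intensities relative to the array's 75th percentile were computed, control and outlier-flagged spots (296 to 387 per array) left out, and spots of a probe averaged. A probe was well above background where over 50% of its spots were flagged so. All probes were fitted with limma 3.58.1 (lmFit, eBayes) in R 4.3.3, which was tested on simulated data. Where 1 line was nowhere well above background, a lower bound on the fold is given, and the p-value beside it is from the fit to the recorded values. No spot was saturated, and the number of arrays limits the precision.

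Genes named are the members, the 3 nearest profiles of each member probe well above background on all 6 arrays (among gene symbols), and of each list the 4 called genes with the largest change plus any needed for a count of 5 or fewer; ST13, PTGES3, FKBP5, PPARGC1A, PPARGC1B and the marker genes were named after their values were seen. A gene was represented by its brightest tested probe. Members and lists were chosen with earlier results of these data known. Replicate numbers did not pair the samples. The alternatives changed the background correction, scaling, filter on dim probes, floor, threshold, test or block, or left out 1 array.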

Additional observations from a re-analysis of the deposited data

How the results depend on the processing

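Over 18 alternatives, no member probe was called in the opposite direction, and no call of any probe turned. Member probes called lower numbered 5 throughout, except that 1 (ESR1 at base 234) was left when a probe had to pass background on each of 6 arrays, since the other 4 were then not tested. Leaving out each array gave 5 to 5 lower and 2 to 3 higher, as the ESRRA probe at base 1371 joined without pLB replicate 3, and 5107 to 6159 and 4994 to 5122 over all probes. The fold sizes at the dim probes depend on the background correction: normexp reduced the probes called higher on the array from 5054 to 3004 and moved the median difference to -0.26. Spike-in scaling moved that median to 0.25, so that calls were 58.4% higher against 48.0% as reported. It left 5 member probes lower and 2 higher. With the replicate block, 5383 probes were lower and 4986 higher and member counts did not change; the numbers do not pair the samples, since the deviations of same-numbered samples correlated at -0.27, -0.10 and -0.22. The methods' t-test, after Benjamini-Hochberg adjustment and with the 2-fold limit, called 4861 probes lower and 4759 higher, with 5 and 2 members. With slide as a block, which compares pLB replicate 1 with the pLUM arrays, 5 and 2 members stayed called. In pLB, PGR and ESR1 at bases 1345 and 5828 lie below the detection limit, so that their differences are bounded and not sized. For ESR2 and ESRRB, at or near that limit in both lines, differences are not bounded either. ESRRG, also near that limit, was not called, and its bound of 1.48-fold higher in pLB became 0.791-fold under normexp.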
